A study of Mus musculus with 6 samples.

Results

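The Shaker-type Kv1 potassium channel genes and the genes of their beta subunits were followed in the caudal artery, which supplies the tail, in mice with and without the receptor Notch3. The family was taken as 9 genes, Kcna1 to Kcna6 for the pore-forming alpha subunits and Kcnab1 to Kcnab3 for the beta subunits, of 18193 genes named on the array. All 21 probe sets whose only platform symbol was one of these genes were used, of 45037 on the array. The family was chosen by the difference of Kcna5 between Notch3-/- and Notch3+/+ arteries, which was already known from the same arrays. The genotype difference of Kcna5 is therefore a description and supports nothing by itself.

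The arteries came from Notch3-/- mice and from Notch3+/+ mice, all at 4 weeks of age (postnatal day 28). Each genotype had 3 RNA pools, and each pool was hybridised to a Mouse MOE430.2 Affymetrix array. The Notch3-/- replicates held 4 mice each, and the Notch3+/+ replicates 1, 2 and 3 held 4, 3 and 3 mice. The sources used here do not give the targeted allele, the strain or the sex of the mice. A probe set is a group of short probes that together report a transcript, and its value is a log2 level made by the authors with RMA, so folds are antilogs of differences. Probes differ in how strongly they bind, so levels are compared between pools within a probe set and not between genes. Because these are whole arteries, fewer cells of a type and less RNA per cell cannot be told apart.

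Kv1 channels are assemblies of alpha subunits that open when a cell depolarises and let potassium out, which brings the membrane back toward rest. In arterial smooth muscle this outward current limits the entry of calcium through voltage-gated calcium channels and so limits constriction. Kv1.5, encoded by Kcna5, and Kv1.2, encoded by Kcna2, are known alpha subunits of vascular smooth muscle, and alpha subunits of the family can join in mixed channels. Beta subunits are cytoplasmic proteins related to aldo-keto reductases that bind the alpha subunits. They change how fast the channels inactivate and how many reach the surface.

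The promoter of Kcna5 is shown because Kcna5 carried the largest difference of the family. Notch receptors act in the nucleus through the DNA-binding protein RBPJ, whose known core motif is TGGGAA, with GTGGGAA as a longer form that contains it. The RefSeq window runs from 250 bases before to 50 bases after the annotated start, at chr6:126535506-126535805 of GRCm38.p6 on the minus strand. Capitals mark matches to TGGGAA on either strand, which read TTCCCA where the match lies on the opposite strand.
Kcna5: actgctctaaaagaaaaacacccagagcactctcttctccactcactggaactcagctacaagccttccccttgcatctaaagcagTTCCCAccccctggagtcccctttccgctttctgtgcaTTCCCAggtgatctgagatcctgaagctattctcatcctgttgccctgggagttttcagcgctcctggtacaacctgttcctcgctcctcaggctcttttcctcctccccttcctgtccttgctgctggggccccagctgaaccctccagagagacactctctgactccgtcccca

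The Kcna5 window held 2 matches to TGGGAA, beginning at -164 and -126 from the start, and the first of them was also a match to GTGGGAA. RefSeq windows were found for 7 members, 11 windows in all, and 4 of these held TGGGAA. Over all 32851 promoter windows of the same length, 25.6% held TGGGAA and 6.38% held GTGGGAA. The remaining matches lay in windows of Kcnab1 and Kcnab2, and they are shown with the surrounding bases so that the flanks can be compared with those of Kcna5. The first Kcnab1 window was chr3:64948962-64949261 on the plus strand, the second chr3:65108764-65109063 on the plus strand, and the Kcnab2 window chr4:152448806-152449105 on the minus strand.
Kcna5 at -164: catctaaagcagTTCCCAccccctggagtc
Kcna5 at -126: gctttctgtgcaTTCCCAggtgatctgaga
Kcnab1, first window, at 18: tcgcttagcctcTTCCCAgacaggcagata
Kcnab1, second window, at 9: agtgatctttccTTCCCActgcacacaaag
Kcnab2 at -216: gaagctggtcccTTCCCAccttgaaaaaga
GTGGGAA was present in 3 of the 11 windows, 1 each of Kcna5, Kcnab1 and Kcnab2. The windows of Kcna2, Kcna3, Kcna4 and Kcna6 held no TGGGAA, which says only that these letters were not in those windows. The CArG box, the motif of serum response factor that many smooth muscle genes carry, was in 0 of the 11 windows and in 1.63% of all windows. The Kcna5 window was 55.0% G and C with 4 CG dinucleotides, and the medians over all windows were 52.7% and 7. Windows of the other members ran from 36.7% to 75.0% G and C and from 1 to 37 CG dinucleotides, with Kcna3 the highest in both. These matches are letters in a sequence, and no binding was measured.

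In the RefSeq gene table of GRCm38.p6, Kcna5, Kcna1 and Kcna6 followed one another with no other protein-coding gene between them, and so did Kcna3 and Kcna2. No member lay on the chromosome that holds Notch3.

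Notch3 read lower in the arteries labelled as lacking it. Its probe set 1421964_at read 4.52, 4.27 and 4.39 in the Notch3-/- replicates, against 8.18, 8.22 and 8.54 in the Notch3+/+ replicates. On 1421965_s_at it read 6.51, 6.44 and 5.87 in the Notch3-/- replicates, against 9.94, 9.95 and 10.09 in the Notch3+/+ replicates. Signal thus remained on that probe set in Notch3-/- arteries, and the reason was not tested. Across the 27027 probe sets tested, Notch3-/- replicate 2 stood apart on the first principal component (45.2% of the variance), with a score of 39.5 where the next highest array scored 5.85. Member values that changed sign without that array are named with their results.

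Of the 21 probe sets, 12 had a mean at or above the level filter, the 40th percentile of the array (3.83 on the log2 scale), and were tested. They belonged to 6 genes: Kcna1, Kcna2, Kcna5, Kcna6, Kcnab1 and Kcnab2. The fit was limma across all 27027 probe sets, with p-values adjusted over all of them by the Benjamini-Hochberg method and a threshold of 0.05. Of the 12, 1 was called lower (Kcna5) and 0 higher, where 0.115% of all probe sets tested were called lower, 0.137% higher and 0.252% in either direction. Because Kcna5 led to the choice of the family, nothing is read from that count. All 3 Notch3-/- pools lay below all 3 Notch3+/+ pools on 4 of the 12 and, without Kcna5, on 3 of 11 (both of Kcnab1 and 1 of Kcna1), where 7.75% of all probe sets tested did so. Nothing is read from that count either, since the 3 come from 2 genes in the same pools.

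**Figure D1:**
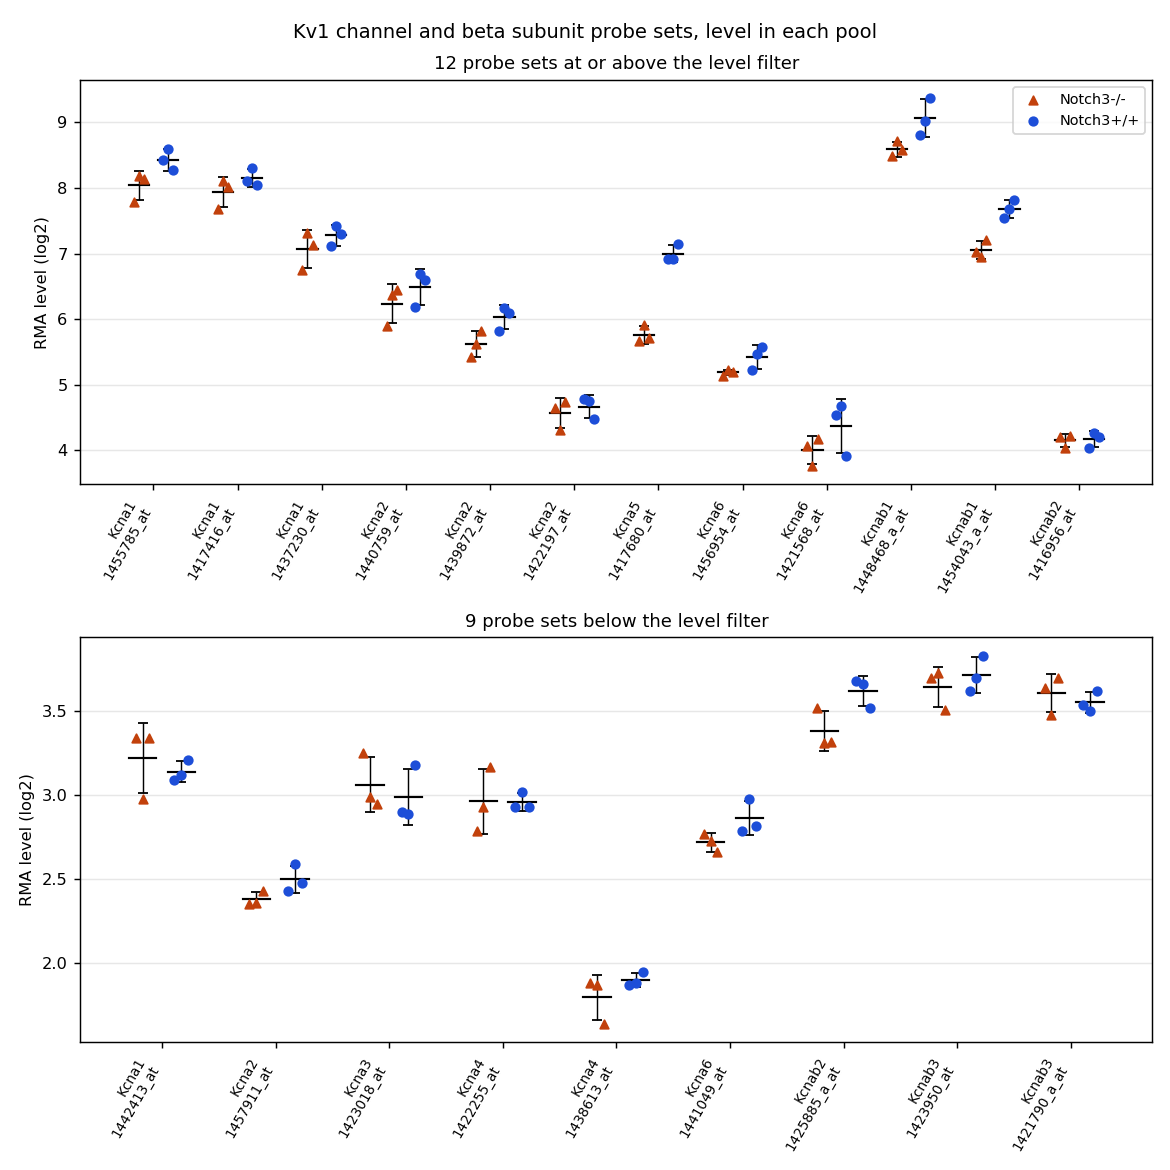
RMA level (log2) of each member probe set in each pool, with Notch3-/- pools as triangles on the left of each pair and Notch3+/+ pools as circles on the right. Bars are the mean and SD of 3 pools, and the upper and lower panels hold the 12 tested and the 9 untested probe sets on different scales. Kcna5 and both Kcnab1 probe sets separate the genotypes, and most of the others overlap.

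Among the alpha subunits, Kcna5 stood out. Its only probe set, 1417680_at, read 5.66, 5.91 and 5.71 in the Notch3-/- replicates, against 6.92, 6.92 and 7.15 in the Notch3+/+ replicates. Every Notch3-/- pool was at least a whole log2 unit below the lowest Notch3+/+ pool, and within each genotype the pools lay close together. The means were 5.76 ± 0.13 in Notch3-/- arteries and 7.00 ± 0.13 in Notch3+/+ arteries (SD, n = 3 each). The difference was -1.24 (SE 0.10), so that the signal was 2.36-fold higher in Notch3+/+ arteries, with a 95% interval of 1.99-fold to 2.79-fold. In Notch3+/+ arteries this probe set ranked at the 81.5th percentile of the array. Kcna5 no longer passed limma's threshold when Notch3-/- replicate 3 (adjusted p = 0.0649) or Notch3+/+ replicate 2 (adjusted p = 0.0565) was left out, although the difference stayed between -1.31 and -1.16 whichever array was left out.

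Kcna2, the gene of Kv1.2, read slightly lower in Notch3-/- arteries on its 3 tested probe sets, and none passed. On 1440759_at, the brightest, it read 5.89, 6.37 and 6.44 in the Notch3-/- replicates, against 6.18, 6.69 and 6.60 in the Notch3+/+ replicates. The genotypes overlapped, and the lowest pool of each was its replicate 1. The difference was -0.26 with a 95% interval from -0.69 to 0.17 (limma adjusted p = 0.627). It was -0.085 without Notch3-/- replicate 1, and leaving out Notch3+/+ replicate 2 or 1 gave -0.16 or -0.41. On 1439872_at it read 5.42, 5.62 and 5.82 in the Notch3-/- replicates, against 5.82, 6.17 and 6.09 in the Notch3+/+ replicates. There the highest Notch3-/- pool equalled the lowest Notch3+/+ pool, and the difference was -0.41 with an interval from -0.72 to -0.10 before adjustment (limma adjusted p = 0.344). The remaining tested probe set, 1422197_at, differed by -0.10 (limma adjusted p = 0.801), and its difference was 0.03 without Notch3-/- replicate 2.

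Kcna1, the gene of Kv1.1, a channel best known from nerve axons, read lower in Notch3-/- arteries on 3 tested probe sets, and none passed. On 1455785_at it read 7.79, 8.19 and 8.14 in the Notch3-/- replicates, against 8.42, 8.60 and 8.27 in the Notch3+/+ replicates. The pools did not overlap, but Notch3-/- replicate 2 was close to Notch3+/+ replicate 3. The difference was -0.39 (SE 0.13), with an interval from -0.70 to -0.08 before adjustment and a limma adjusted p of 0.357. The probe sets 1417416_at and 1437230_at overlapped between genotypes and differed by -0.22 and -0.21 (limma adjusted p = 0.570 and 0.633). The 3 bright probe sets of Kcna1 were all lowest in Notch3-/- replicate 1. Without that array the differences on 1417416_at and 1437230_at were -0.088 and -0.052, and without Notch3+/+ replicate 2 both were -0.14. On 1455785_at the difference was -0.265 without Notch3-/- replicate 1 and -0.47 without Notch3+/+ replicate 3. On 1437230_at the difference was -0.34 without Notch3-/- replicate 2. They report the same gene in the same pools and are not independent of one another.

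Kcna6, the gene of Kv1.6, was dimmer. On 1456954_at it read 5.14, 5.22 and 5.20 in the Notch3-/- replicates, against 5.22, 5.47 and 5.58 in the Notch3+/+ replicates. Notch3-/- replicate 2 equalled Notch3+/+ replicate 1, and the difference of -0.24 had an interval from -0.48 to 0.01 (limma adjusted p = 0.461). On 1421568_at the Notch3-/- pools ranged from 3.76 to 4.17 and overlapped the Notch3+/+ pools at 3.91 to 4.68, with a difference of -0.38 (limma adjusted p = 0.537). The difference on 1421568_at was -0.61 without Notch3+/+ replicate 3 and -0.23 without Notch3+/+ replicate 2. Neither Kcna1, which lies next to Kcna5 on the chromosome, nor Kcna6, which follows Kcna1, passed the threshold.

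No probe set of Kcna3 or Kcna4 reached the level filter. Kcna3, the gene of Kv1.3, the main Kv1 channel of T cells, read 3.25, 2.99 and 2.95 in the Notch3-/- replicates, against 2.90, 2.89 and 3.18 in the Notch3+/+ replicates. The genotypes overlapped and the difference was 0.07. Kcna4, the gene of the rapidly inactivating Kv1.4, read between 2.79 and 3.17 in the Notch3-/- pools and between 2.93 and 3.02 in the Notch3+/+ pools on its brighter probe set. These values carry no detection call, so they show low signal and not absence.

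**Figure D2:**
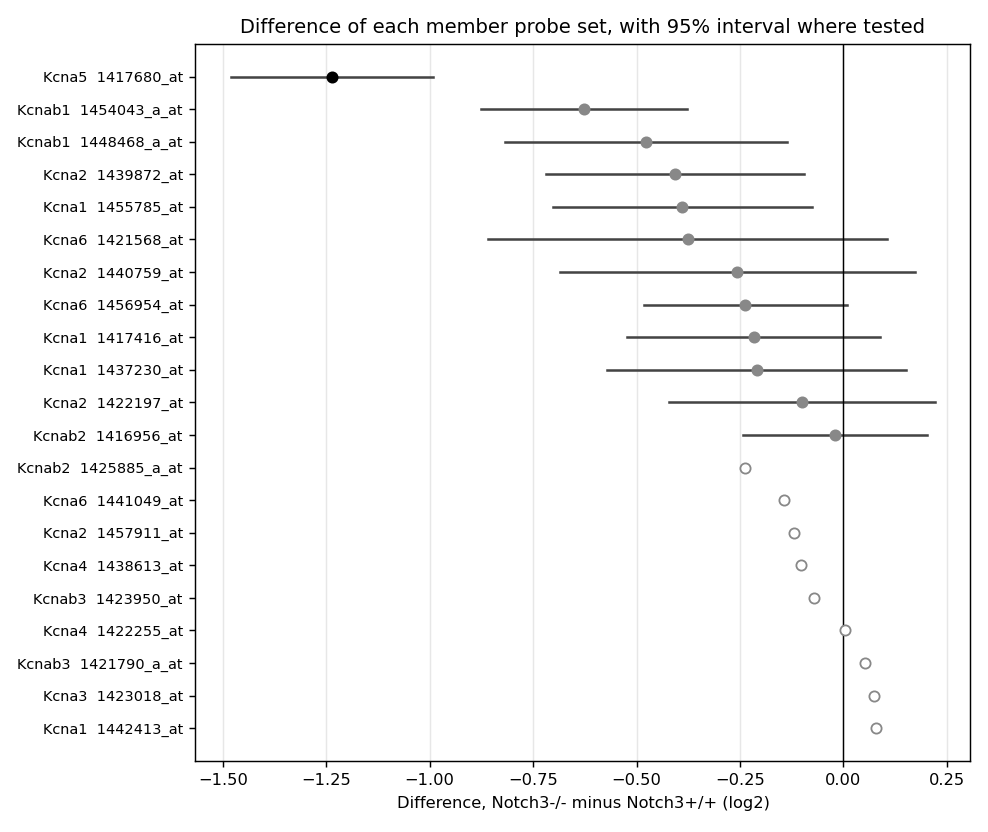
Difference between Notch3-/- and Notch3+/+ pools (log2) for all 21 member probe sets, with the 95% interval of the limma fit for the 12 tested. Black marks the probe set called, grey those not called, and open circles those below the level filter. Kcna5 lies at -1.24, the Kcnab1 probe sets follow at -0.63 and -0.48, and the untested ones lie between -0.24 and 0.08.

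Among the beta subunits, Kcnab1 separated the genotypes on both of its probe sets but did not pass the threshold. Kcnab1 encodes Kv beta 1, which can give slowly inactivating Kv1 channels a fast inactivation. On 1448468_a_at it read 8.48, 8.71 and 8.58 in the Notch3-/- replicates, against 8.81, 9.02 and 9.37 in the Notch3+/+ replicates. The Notch3-/- pools were closer together than the Notch3+/+ pools, and they lay below all of them. The means were 8.59 ± 0.12 in Notch3-/- arteries and 9.07 ± 0.28 in Notch3+/+ arteries (SD, n = 3 each), a difference of -0.48 (SE 0.15, limma adjusted p = 0.308). That difference was -0.325 without Notch3+/+ replicate 3 and -0.605 without Notch3+/+ replicate 1.

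On 1454043_a_at, Kcnab1 read 7.02, 6.94 and 7.20 in the Notch3-/- replicates, against 7.54, 7.68 and 7.82 in the Notch3+/+ replicates. The highest Notch3-/- pool was again below the lowest Notch3+/+ pool. The means were 7.05 ± 0.13 in Notch3-/- arteries and 7.68 ± 0.14 in Notch3+/+ arteries (SD, n = 3 each). The difference was -0.63 (SE 0.11), 1.54-fold higher in Notch3+/+ arteries with an interval of 1.30-fold to 1.83-fold before adjustment, and the limma adjusted p was 0.0949. With array weights estimated by limma this probe set passed (adjusted p = 0.0187), in a fit that called 978 probe sets in place of 68. Its adjusted p lay between 0.115 and 0.452 when an array was left out.

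Kcnab2 and Kcnab3 differed little. Kcnab2 encodes Kv beta 2, a beta subunit known for promoting surface delivery of Kv1 channels. On 1416956_at it read 4.20, 4.03 and 4.22 in the Notch3-/- replicates, against 4.04, 4.27 and 4.20 in the Notch3+/+ replicates. The pools of the genotypes were intermixed, and the difference of -0.02 had an interval from -0.24 to 0.20 (limma adjusted p = 0.952). The signal differences seen for Kcnab1 lay outside that interval. This Kcnab2 probe set was dim, at the 44.7th percentile of the array in Notch3+/+ arteries. RMA compresses differences of dim probe sets, so a larger change of the transcript is not excluded. Without Notch3-/- replicate 2 the difference on 1416956_at was 0.04. The other Kcnab2 probe set and both probe sets of Kcnab3 were below the level filter, with differences of -0.24, -0.07 and 0.05.

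Besides Kcna5, 11 of 11 tested probe sets had a difference below 0, where 51.8% of all probe sets tested did, and their median was -0.26. Of these 11, 4 had an unadjusted p under 0.05, where 4.85% of all probe sets tested were lower with such a p, and 0 were called. With 1 probe set per gene, the brightest, 5 of 5 genes besides Kcna5 were below 0 with a median of -0.26, where the median over the 12732 genes tested was -0.0033 and 50.5% were below 0. Nothing is read from these counts, since the 11 probe sets report 5 genes in the same 6 pools and the family was taken with earlier results of these arrays known. With Kcna5 included, the medians over the 12 probe sets and over the 6 genes were both -0.32. Of the 12732 genes tested over the whole array, 0.322% were called in either direction. Kcnab2 turned to 0.01 when the arrays were centred on their medians and to 0.0078 after a further quantile normalization, while Kcna5 stayed at -1.21 and -1.24 under the same settings. Kcna7, an alpha subunit gene outside the family as taken here and known from skeletal muscle, read 5.27, 5.26 and 5.27 in the Notch3-/- replicates, against 5.38, 5.38 and 5.27 in the Notch3+/+ replicates.

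Genes whose products anchor, carry or modify Kv1 channels were not called. Over the 12732 genes tested, 1516 had an unadjusted limma p under 0.05 in either direction, and 0.322% were called. Of 16 scaffold and surface partner genes 9 were tested, 0 were called with limma in either direction, 1 had an unadjusted p under 0.05, and the median difference was -0.10 (-0.03 without Notch3+/+ replicate 3 or without Notch3-/- replicate 2). Dlg1, a PDZ scaffold that clusters Kv1 channels, averaged 8.29 in Notch3-/- and 8.48 in Notch3+/+ arteries, a difference of -0.18 (limma adjusted p = 0.404). The accessory subunit gene Kcne4, whose protein inhibits some Kv1 channels, differed by -0.28 (limma adjusted p = 0.458). Cttn, the gene of the actin-binding protein cortactin, differed by 0.18 (limma adjusted p = 0.498). Of 10 trafficking genes 7 were tested, 0 were called with limma, 2 had an unadjusted p under 0.05, and the median was 0.13 (0.21 without Notch3-/- replicate 1). Within that list the ubiquitin ligase gene Nedd4l differed by 0.41 (limma adjusted p = 0.226), the clathrin adaptor gene Ap2a1 by -0.47 (limma adjusted p = 0.230) and the dynein light chain gene Dynll1 by 0.22 (limma adjusted p = 0.441). Of 8 kinase and adaptor genes, all tested, 0 were called with limma and 0 had an unadjusted p under 0.05. Their median was 0.03, with 0.20 for Src, 0.19 for the protein kinase A gene Prkaca and -0.12 for the adaptor gene Sqstm1.

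Other potassium channel genes of arteries showed no call either and went in both directions. Of 21 in the list 14 were tested, with 0 called with limma. Of these 14, 3 had an unadjusted limma p under 0.05, where 1516 of the 12732 genes tested did. The differences were below 0 for 9 and above 0 for 5, with a median of -0.11. That median was 0.12 with the level filter at the 60th percentile, -0.03 without Notch3+/+ replicate 3 and -0.045 without Notch3-/- replicate 3. Abcc9 and Kcnj8, whose products form the ATP-sensitive potassium channel of vascular muscle, differed by 0.44 and 0.35 (limma adjusted p = 0.232 and 0.409). Kcnma1, the calcium-activated BK channel gene, differed by -0.51 (limma adjusted p = 0.416). The differences of the 14 ran from -0.51 to 0.44. They are not set against that of Kcna5, which was chosen for its difference.

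**Figure D3:**
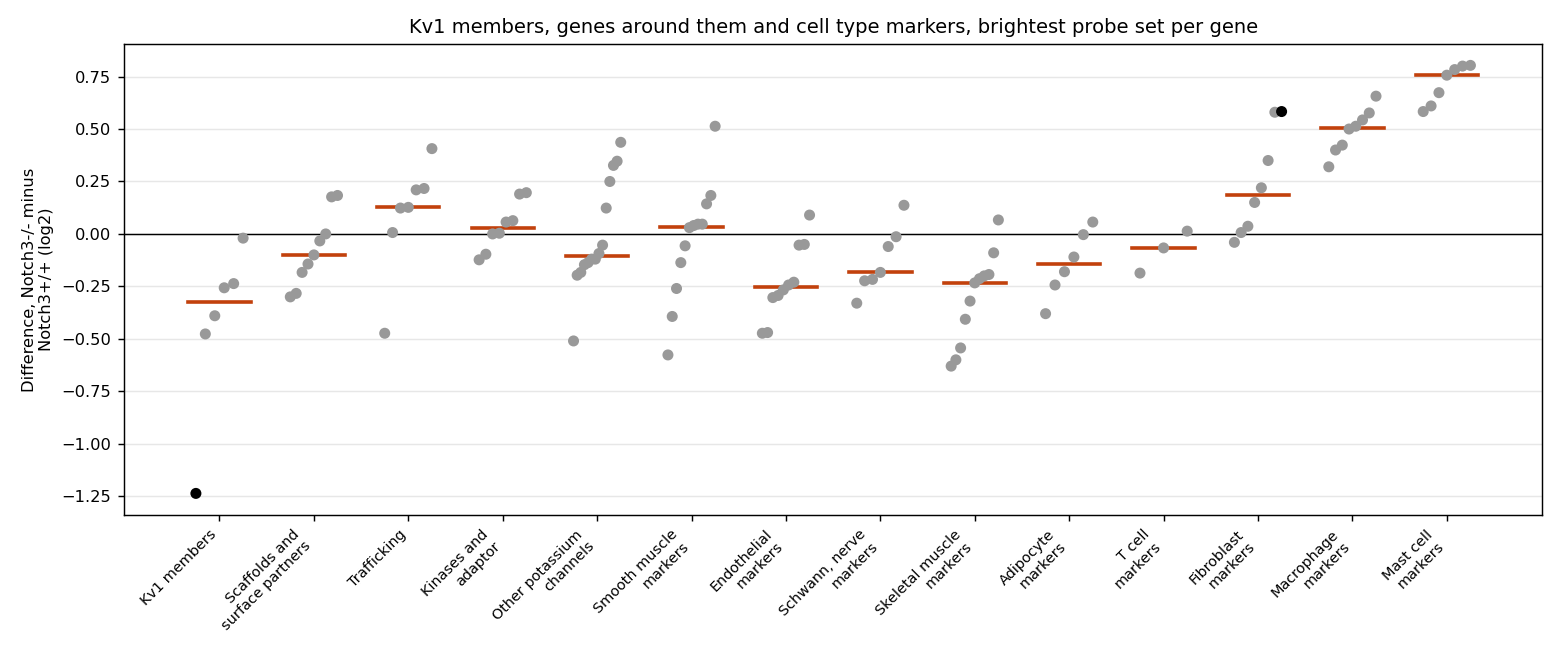
Difference between Notch3-/- and Notch3+/+ pools (log2) for the tested genes of each list, by the brightest probe set of each gene, with the list median as a bar. Black marks the called genes, which are Kcna5 and the fibroblast marker Dpt, and grey the others. The median of the Kv1 members, Kcna5 included, is -0.32, and those of the partner, trafficking, kinase and other potassium channel lists lie between -0.11 and 0.13. Marker medians run from -0.26 for endothelial and -0.23 for skeletal muscle cells to 0.51 for macrophages and 0.76 for mast cells.

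Markers of the cell types in the artery were set beside these values. Smooth muscle markers, 12 of 12 tested, had mean levels of 10.89 to 10.90 in the Notch3-/- pools, within the 10.78 to 11.10 of the Notch3+/+ pools, and a median difference of 0.035. That median was -0.069 without Notch3+/+ replicate 1 and -0.017 without Notch3-/- replicate 2. With limma 0 of the 12 were called and 3 had an unadjusted p under 0.05, where 1516 of the 12732 genes tested did. The contractile apparatus genes Acta2, Tagln and Myh11 differed by 0.05, -0.06 and 0.04. Acta2 and Tagln averaged 13.25 and 12.92 in Notch3-/- arteries, where the highest value of any array was 13.38. So near the top of the scale, a difference could be missed. The smoothelin gene Smtn differed by -0.58 and Myocd, the gene of the smooth muscle coactivator myocardin, by -0.39 (limma adjusted p = 0.318 and 0.265), with every Notch3-/- pool below every Notch3+/+ pool. The calponin gene Cnn1 differed by 0.51 (limma adjusted p = 0.138), with every Notch3-/- pool above. Beside Kcna5, endothelial markers were below 0 for 9 of 10, with mean levels of 8.61 to 8.81 in the Notch3-/- pools and 8.89 to 9.06 in the Notch3+/+ pools, and a median difference of -0.26 (-0.16 without Notch3+/+ replicate 3). Beside Kcna1 and Kcna2, Schwann cell and nerve markers were below 0 for 6 of 7, with mean levels of 7.51 to 7.72 in the Notch3-/- pools and 7.70 to 7.82 in the Notch3+/+ pools, and a median of -0.18 (-0.085 without Notch3-/- replicate 2). Macrophage markers were above 0 for 8 of 8 and mast cell markers for 7 of 7, with median differences of 0.51 and 0.76. Without Notch3+/+ replicate 3 these medians were 0.30 and 0.49. Fibroblast markers were above 0 for 7 of 8, with a median of 0.185 and 1 call (Dpt, 0.58, limma adjusted p = 0.0499). In every other marker list 0 were called with limma. Over the 12732 genes tested, 0.322% were called and 50.5% were below 0. Nothing is read from the marker counts, since the markers of a list were measured in the same 6 pools. Of the 7 T cell markers measured, 4 were below the level filter, as Kcna3 was. Skeletal muscle markers had mean levels of 6.08 to 6.99 in the Notch3-/- pools and 6.62 to 6.96 in the Notch3+/+ pools. Their median was -0.23, and leaving out Notch3-/- replicate 2 or 3 gave 0.013 or -0.59, while leaving out Notch3+/+ replicate 2 or 3 gave -0.15 or -0.42. Adipocyte markers had 8.10 to 8.37 in the Notch3-/- pools and 8.39 to 8.45 in the Notch3+/+ pools. Their median was -0.15, and leaving out Notch3-/- replicate 3 or 1 gave -0.02 or -0.23, while leaving out Notch3+/+ replicate 1 gave -0.082. The part of any of these cell types in the Kv1 values was not tested.

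The genes whose levels followed Kcna5 most closely were Rcan2, Snx17, Timp4, Tax1bp3 and Map3k5. Likeness was Pearson's r over the 6 pools, computed for 12730 genes, and it was 0.994 for Rcan2 and 0.988 for Map3k5. Since the 6 points fall into 2 genotypes, any gene that is lower in Notch3-/- pools with little spread has a high r. An r above 0.95 was found for 63 genes. Genes that are higher in Notch3-/- pools with little spread have a negative r and are not in that count. Rcan2, a regulator of calcineurin, read 7.22, 7.38 and 7.16 in the Notch3-/- replicates, against 8.78, 9.02 and 9.14 in the Notch3+/+ replicates. Timp4, a metalloproteinase inhibitor, read 6.79, 6.88 and 6.75 in the Notch3-/- replicates, against 7.93, 8.22 and 8.31 in the Notch3+/+ replicates. Map3k5, a stress-activated kinase gene, differed by -0.48, Snx17, a sorting nexin gene, by -0.16, and Tax1bp3, a PDZ protein gene, by -0.08. A likeness of pattern was thus shared by genes with differences of very unequal size. Of these 5 genes, 0 or 1 remained among the first 5 when an array was left out, although their r stayed at 0.984 or above.

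Within the family, by the brightest probe set of each gene, the likeness to Kcna5 was 0.881 for Kcnab1 (1448468_a_at), rank 242 of 12730 genes. The other Kcnab1 probe set, 1454043_a_at, was not set against Kcna5. It was 0.798 for Kcna6, 0.772 for Kcna1, 0.544 for Kcna2 and 0.051 for Kcnab2. After the mean of each genotype was taken away, r over the same 6 pools was 0.867 for Kcnab1, 0.635 for Kcna6, 0.460 for Kcna2, 0.056 for Kcna1 and -0.332 for Kcnab2. Nothing is read from these values, which rest on 6 pools and 1 probe set per gene.

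**Figure D4:**
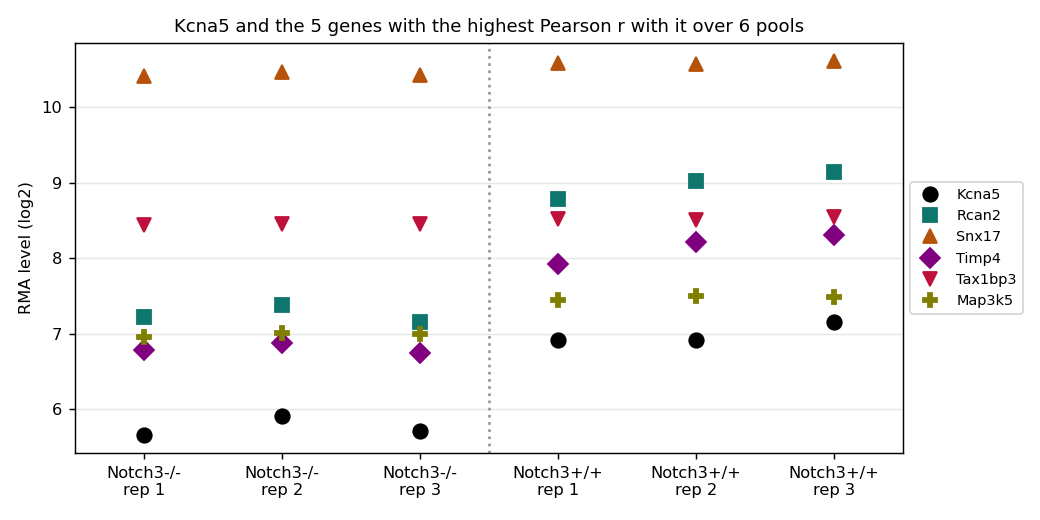
RMA level (log2) of Kcna5 and of the 5 genes most like it, in each of the 6 pools. The 3 Notch3-/- pools stand on the left and the 3 Notch3+/+ pools on the right. All 6 genes are lower in every Notch3-/- pool, with differences from -1.73 for Rcan2 to -0.08 for Tax1bp3.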

How the data were processed

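Per the submitters' processing notes, the deposited values were made with RMA, a background correction, quantile normalization and probe summary. The sources used here do not give its version or chip definition. That the authors' values are on a log2 scale was read from their range, 1.38 to 13.38. RMA compresses differences of dim probe sets, and no detection call or scanner file was used. Of 45101 probe sets, 64 chip controls were left out. Of the rest, 34945 had 1 gene symbol, 932 several and 9160 none. Symbols came from the platform annotation, updated through RefSeq (GRCm38.p6), which also gave the promoters.

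Differences are Notch3-/- minus Notch3+/+, fitted with limma 3.58.1 in R 4.3.3 (lmFit and eBayes, genotype as the only term) over the 27027 probe sets at or above the 40th percentile. The two-sided p-values were adjusted over all of them. Intervals are 95% and unadjusted. Lists use the brightest probe set per gene, and folds are antilogs. The fit was tested on simulated data. Arrays carry no read depth, and 3 pools per genotype limit the precision. The labels call the pools biological replicates. The members and lists were chosen with earlier results of these data known. Named genes were all members, Kcna7, Notch3, the 5 genes most like Kcna5, any called gene of a list, the 3 genes with the smallest unadjusted p in the partner, trafficking, kinase and other potassium channel lists, and in the marker lists the defining markers a sentence needs. No batch is given in the labels.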

Additional observations from a re-analysis of the deposited data

How the results depend on the processing

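The level filter, the variance trend, a further quantile normalization, centring, weighting by estimated array quality or by mice pooled, the replicate block, the threshold and the omission of each array were varied. The Kcna5 difference ran from -1.31 to -1.16 over 14 settings and was called in 12 of them. The exceptions were the fits without Notch3+/+ replicate 2 (-1.28) and without Notch3-/- replicate 3 (-1.21). The count of member probe sets called was 1, and it was 2 with array weights, 2 at a threshold of 0.10, and 0 to 1 when an array was left out. The count over all probe sets was 68, against 978 with array weights and 13 to 62 when an array was left out. The cause of the higher count with array weights was not tested. The median over the tested member probe sets was -0.40 to -0.22 when an array was left out. Of the 5 genes most like Kcna5, 0 to 1 stayed among the first 5 when an array was left out. Signs changed for Kcnab2 to 0.0078 with a further quantile normalization, 0.01 with centring, 0.04 without Notch3-/- replicate 2 and 0.03 without Notch3+/+ replicate 2 (range -0.085 to 0.04 over the arrays left out), and for Kcna2 on 1422197_at to 0.028 without Notch3-/- replicate 2 (range -0.20 to 0.028). The median of the other potassium channels turned to 0.12 with the filter at the 60th percentile, and that of the kinases and adaptor to -0.0014 with the mean of all probe sets per gene. The smooth muscle marker median turned to -0.0096 with a further quantile normalization, -0.061 with that mean, -0.069 without Notch3+/+ replicate 1 and -0.017 without Notch3-/- replicate 2. The skeletal muscle marker median turned to 0.069 with array weights and 0.013 without Notch3-/- replicate 2, and the T cell marker median to 0.0063 with array weights. Of 210 list medians recomputed, 193 moved by less than the spread between pools. With the replicate number as a block, the Kcna5 difference was -1.24 (limma adjusted p = 0.0240) and 57 probe sets were called. The deviations of same-numbered pools correlated at 0.242, 0.0465 and -0.0672, and 2 of 6 pools correlated best with their own number. With 3 pools per genotype, these values cannot decide whether same-numbered pools share more than a number. Dim probe sets limit what can be seen, and 9 of the 21 could not be judged.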

Other observations

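Kcng1, the gene of a Kv subunit that forms channels only together with other Kv subunits, had a mean below the level filter and was not tested. It was picked out after its values were seen. It read 4.45, 3.92 and 4.36 in the Notch3-/- replicates, against 3.51, 3.30 and 3.13 in the Notch3+/+ replicates. The Notch3-/- pools lay above all the Notch3+/+ pools, and the difference was 0.93. Among the untested Kv1 probe sets, 1 had pools that did not overlap: Kcna6 on 1441049_at read 2.77, 2.73 and 2.66 in the Notch3-/- replicates, against 2.79, 2.98 and 2.82 in the Notch3+/+ replicates.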
